A study of Mus musculus with 6 samples.

Results

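Vascular smooth muscle cells of the mouse quadriceps were taken as the droplets with at least 500 unique molecular identifiers (UMIs, each tagging 1 captured RNA molecule) that held at least 2 UMIs of Myh11, Lmod1, Cnn1 and Pln together and at least 3 of Acta2, Tagln and Myl9. Droplets with more than 1 UMI of the endothelial genes Pecam1 and Cdh5, or more than 2 of the macrophage genes C1qa, C1qb and Tyrobp, were left out. The rule found 393 cells among 8258 droplets in 3 libraries. These were 203 of 2195 in uninjured muscle, 79 of 2902 after subcritical injury and 111 of 3161 after critical injury. Members were chosen by their values of these 12 genes, so those levels are given as a description and support nothing.

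Vascular smooth muscle cells wrap arteries, arterioles and venules and set the width of the vessel by contracting. They differ from pericytes, the mural cells of capillaries, in a dense contractile apparatus that includes the smooth muscle myosin heavy chain Myh11, the actin Acta2 and the actin-binding calponin Cnn1. Serum response factor, with its smooth-muscle partner myocardin, drives many of these genes, and after vessel injury the cells are known to be able to lower them and make matrix instead.

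The groups were male wild-type C57BL/6 mice, 2 to 3 months old, with 4 animals each: uninjured, with a 2 mm (subcritical) defect, or with a 3 mm (critical) volumetric muscle loss defect of the left quadriceps, which was taken at day 7. Critical volumetric muscle loss is the removal of so much muscle that it does not regenerate, and the design sets it beside an injury below that size. The whole muscle was dissociated with collagenase and dispase. Cells of each animal were labelled with an antibody hashtag, the 4 animals of a group were pooled, and the pool was stained with a panel of antibodies and run as 1 library for 5′ single-cell RNA with antibody counts. Because each group is 1 library, differences between groups and between libraries cannot be told apart, and gene differences carry no test. Intervals cover counting error only.

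The libraries held 5681346, 4954129 and 7138662 gene UMIs in the uninjured, subcritical and critical group. The members held 800100, 119751 and 276419 of them. The median member had 3589 UMIs in the uninjured, 1286 in the subcritical and 1622 in the critical library, against 1704.5, 1286 and 1607 in all other droplets. The uninjured members were thus deeper than both the injured ones and their own neighbours. Between 10 and 16 barcodes were shared by any pair of libraries, and 0 of them were members in both.

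The members carried smooth muscle genes that the rule did not use. Levels are UMIs per 1000000 UMIs (CPM) of the pooled members of a library. Of the genes outside the rule, Nrip2, Tesc, Fbxl22, Gm13861 and Scn4b were the most member-typical, with levels at least 5.39 log2 units above all other droplets in every library. Mustn1, a small nuclear protein of muscle, stood at 4279, 3582 and 2134 CPM in the uninjured, subcritical and critical members, against 128, 60.8 and 40.1 CPM in the other droplets. Myocd, which encodes myocardin, stood at 103, 50.1 and 47.0 CPM, against 1.64, 0.210 and 0.583 CPM. Both were higher in members than in other droplets of all 3 libraries. The 14 smooth muscle markers outside the rule summed to 17160, 9929 and 7167 CPM, against 407, 360 and 466 CPM elsewhere, and none of the 14 was at 0.

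Most markers of other cells were low in the members, with 2 exceptions. The first was present in the uninjured members too, and the second was high only after injury. Macrophage and immune markers summed to 83.7, 484 and 662 CPM in the 3 member pools against 4448, 26240 and 19320 CPM in other droplets, and Ptprc, the pan-leukocyte CD45 gene, was at 0 in the uninjured and subcritical members. Endothelial markers summed to 1182, 560 and 586 CPM against 23610, 3203 and 3326 CPM. Muscle fibre transcripts summed to 86.2, 58.5 and 65.1 CPM and red blood cell transcripts to 3.75, 0 and 0 CPM. The first exception was the pericyte markers, which summed to 3368, 6422 and 6436 CPM against 440, 531 and 725 CPM in other droplets. The second was the fibroblast markers, which summed to 1287, 13150 and 23750 CPM against 13610, 25660 and 28570 CPM in other droplets. Pdgfra, Lum, Pi16 and Cthrc1 were at 0 in the uninjured members, whereas only Pi16 was at 0 in the subcritical and only Pi16 and Dpp4 in the critical ones.

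Both exceptions were strongest in particular members, which were separated after these values had been seen. Collagen-rich members, with over 3% of their UMIs from Col1a1, Col1a2, Col3a1 and Postn, numbered 0 of 203 in the uninjured, 6 of 79 in the subcritical (7.59%, exact 95% interval 2.84 to 15.8) and 16 of 111 in the critical library (14.4%, 8.47 to 22.4). The count of 0 allows a share of up to 1.48% (3 counts of the total), and its exact 95% upper bound is 1.80%. They were large cells, with 19.3% and 37.8% of all member UMIs in the subcritical and critical library. Of these, 5 of 6 and 11 of 16 had no Myh11 UMI. Their Myh11 level was 130 and 182 CPM, while Col1a1 stood at 31020 and 28960 CPM, the fibroblast proteoglycan Dcn at 1428 and 1215 CPM and the tendon gene Tnmd at 1861 and 1148 CPM. These cells go against the smooth muscle label. Cnn1 was found in 5 of the 6 and 13 of the 16, and Acta2 in all of them, so the rule took them in. Values are given below with and without them.

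Pericyte-marker members were those with at least 3 UMIs of Rgs5, Kcnj8 and Abcc9 that were not collagen-rich. They numbered 39, 25 and 47 in the uninjured, subcritical and critical library. Rgs5, a brake on G-protein signalling that marks pericytes, stood at 6332, 10640 and 8813 CPM in them, and the secreted pericyte protein gene Vtn at 1135, 884 and 575 CPM. Unlike the collagen-rich members they held Myh11, at 3002, 1534 and 2259 CPM. The remaining 164, 48 and 48 members, which were not collagen-rich and held fewer than 3 UMIs of Rgs5, Kcnj8 and Abcc9, are called core members here. The whole list of pericyte markers summed to 1987, 2303 and 2982 CPM in core members and 12100, 16300 and 14580 CPM in pericyte-marker members. Core members were thus also above the other droplets (440, 531 and 725 CPM). Because the cut is a number of UMIs, shallow cells are less likely to reach it. Median depth was 3943.5, 1080 and 1492.5 UMIs in core members and 2710, 1452 and 1532 UMIs in pericyte-marker members.

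**Figure D1:**
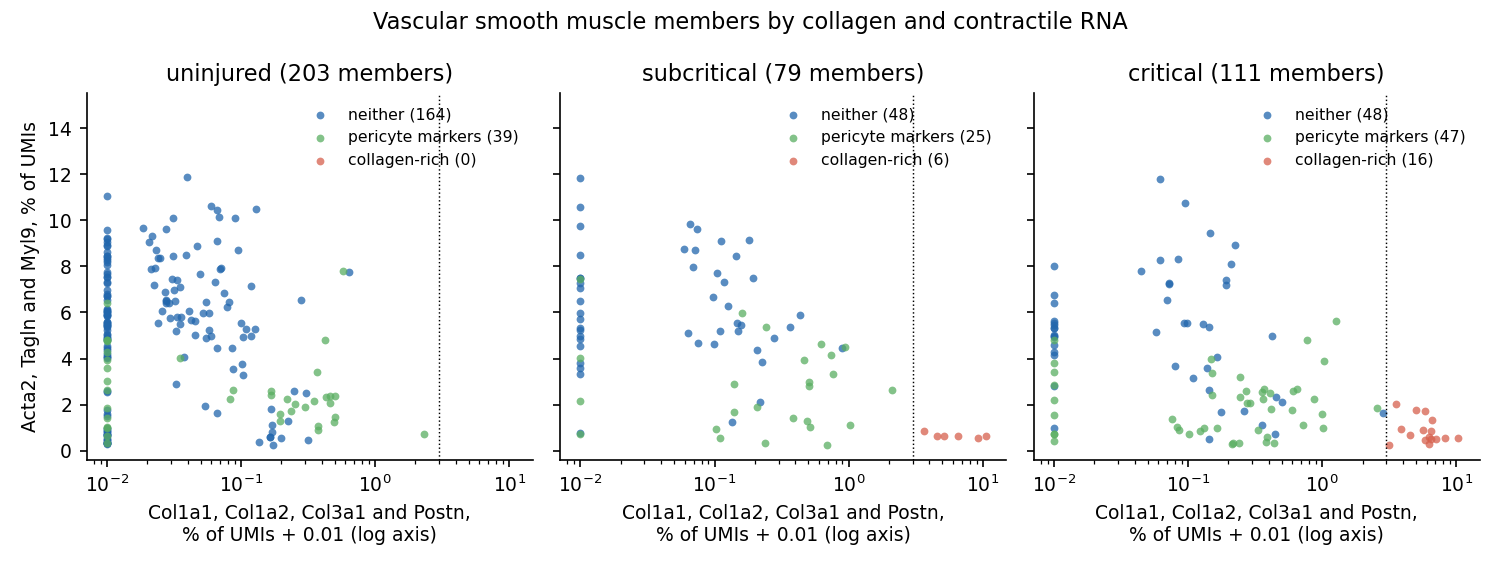
Each point is 1 member. The x axis gives the share of its UMIs from Col1a1, Col1a2, Col3a1 and Postn (percent plus 0.01, log axis) and the y axis the share from Acta2, Tagln and Myl9 (percent). The dotted line marks 3%. Collagen-rich members lie to its right, 0 in the uninjured, 6 in the subcritical and 16 in the critical library, and all of them are low on the y axis.

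The share of Acta2, Tagln and Myl9 in a member's UMIs had a median of 5.26% in the uninjured, 4.66% in the subcritical and 2.40% in the critical library, with ranges of 0.246 to 11.9%, 0.263 to 11.8% and 0.241 to 11.8%. The 3 ranges overlapped almost fully. Within core members the medians were 5.81, 5.79 and 5.32%, within pericyte-marker members 2.25, 2.63 and 1.87%, and within collagen-rich members 0.640% (subcritical) and 0.651% (critical). All 3 genes belong to the rule, so these values describe the members, and no difference between groups is read from them. At the edge of the rule, 14, 11 and 24 members held exactly 2 marker UMIs, and 4, 30 and 38 droplets passed every other condition with 1 marker UMI. The median of Acta2, Tagln and Myl9 was 14.5, 20 and 22.5 UMIs just inside and 19, 9 and 14.5 UMIs just outside.

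Members made up 9.25% of droplets in uninjured muscle (exact 95% interval 8.07 to 10.5), 2.72% after subcritical injury (2.16 to 3.38) and 3.51% after critical injury (2.90 to 4.21). Macrophage-like cells (at least 5 UMIs of C1qa, C1qb and Tyrobp) numbered 164, 873 and 814 in the same droplets, so the denominator differed between libraries. Set against endothelial-like cells (at least 3 UMIs of Pecam1 and Cdh5), which line the same vessels, the members numbered 203 beside 955, 79 beside 352 and 111 beside 465. They were thus 17.5% (15.4 to 19.9), 18.3% (14.8 to 22.3) and 19.3% (16.1 to 22.7) of both kinds together. These 3 intervals overlapped. Core members alone were 14.7% (12.6 to 16.9), 12% (8.98 to 15.6) and 9.36% (6.98 to 12.2) of core members and endothelial-like cells. The critical interval lay below the uninjured one. Core members were split off after values had been seen, and both kinds of cell were cut at a number of UMIs. Depth differed between libraries, and endothelial markers summed to 40460, 15150 and 16670 CPM in endothelial-like cells. The part of these cuts in the shares was not tested.

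**Figure D2:**
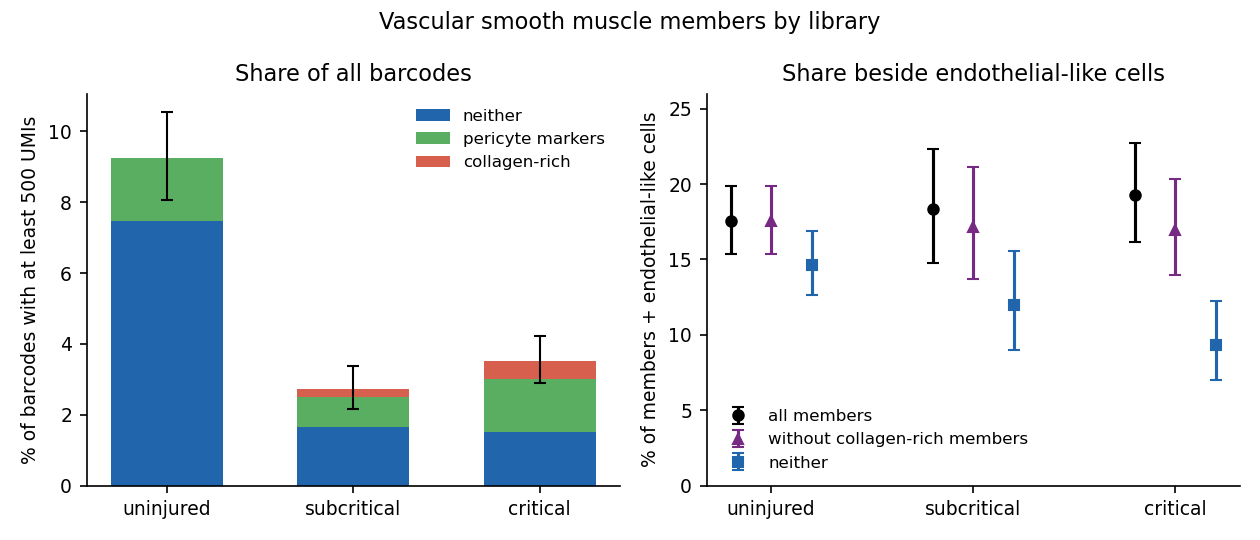
Left, members as a percentage of droplets with at least 500 UMIs, stacked by kind of member; the bar is the exact 95% interval of the total. Right, members as a percentage of members plus endothelial-like cells with exact 95% intervals, for all members, members without the collagen-rich ones, and core members (drawn as neither). On the left the uninjured library stands above the other two, while on the right the totals are 17.5, 18.3 and 19.3%.

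Pericyte-like cells, which had at least 3 UMIs of Rgs5, Kcnj8 and Abcc9 and did not meet the member rule, numbered 6, 64 and 94. The 6 uninjured ones held tenocyte markers at 33310 CPM, fibroblast markers at 27610 CPM and glial markers at 13120 CPM, against pericyte markers at 7072 CPM. Their own markers go against the name, so no share is given for that library. In the injured libraries pericyte markers led, at 15090 and 16080 CPM in the subcritical and critical cells, with fibroblast markers at 8695 and 9578 CPM. There the members were 55.2% (46.7 to 63.6) and 54.2% (47.1 to 61.1) of members and pericyte-like cells together, and the intervals overlapped. Acta2, a gene of the rule, stood at 3929 and 3160 CPM in these pericyte-like cells. The part of contractile genes in deciding which side of the rule a cell falls on was not tested.

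The hashtags allowed a comparison over animals, with little power. Only 4, 1 and 3 members carried 1 clear hashtag, which is 1.97, 1.27 and 2.70% of members against 34.9, 37.9 and 31.4% of all droplets. Per animal, the share of tagged cells that were members was 0.698% ± 0.784 (SD, n = 4) in uninjured, 0.0814% ± 0.163 in subcritical and 0.388% ± 0.491 in critical mice. The exact two-sided permutation test over animals gave p = 0.543 for critical against uninjured, p = 0.257 for subcritical against uninjured and p = 0.429 for critical against subcritical. Adjusted over the 3 comparisons each p was 0.543, and 0.0286 is the smallest p that 4 against 4 allows. The spread between animals was as large as the differences. Expression per animal was not tested with so few tagged members.

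Contractile genes outside the rule were lower in the pooled members of both injured libraries. Of 26 contractile and cytoskeletal genes outside the rule, all reaching a mean of 50 CPM, 15 were at least 2-fold lower and 1 at least 2-fold higher in critical than in uninjured members. Of all 3176 genes at that level, 10.9% were 2-fold lower and 13.3% 2-fold higher. In subcritical members 5 of 26 were 2-fold lower and 1 higher, against 7.65% and 11.5% of all genes. The list had a median log2 fold of -1.09 (critical) and -0.66 (subcritical), against medians over all genes of -0.00129 and 0.0528. In other droplets the same list had medians of -0.06 and -0.11. The shares of all genes given here are the reference for the counts of every list below. Among the genes of the rule, which are given as a description only, Myh11 stood at 9990, 3992 and 3545 CPM and Acta2 at 31290, 20290 and 12540 CPM.

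The difference was smaller in the core members. Without the collagen-rich members the median log2 fold of the list was -0.67 (critical) and -0.51 (subcritical). Within core members it was -0.12 and -0.23. Smtn (smoothelin, found in contractile smooth muscle) was 982, 593 and 387 CPM over all members but 1106, 1031 and 1182 CPM in core members. Mylk, the kinase that starts contraction by phosphorylating myosin light chain, was 3185, 1845 and 1711 CPM over all members and 3444, 2750 and 4233 CPM in core members. For Smtn and Mylk the critical level was the lowest over all members and the highest in core members. The genes of the rule are again only described. In core members Myh11 stood at 11100, 7150 and 10130 CPM, Acta2 at 34020, 32300 and 28020 CPM, Tagln, the actin-bundling transgelin, at 24100, 24410 and 18030 CPM, and Pln, the brake on the calcium pump, at 528, 670 and 619 CPM.

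Some contractile genes stayed below the uninjured level in core members. Tpm2, a tropomyosin that winds along actin, was 8985, 5186 and 3133 CPM over all members (log2 fold -1.52 for critical) and 9926, 8852 and 7724 CPM in core members (-0.36, counting interval -0.49 to -0.24). Des, the intermediate filament desmin, was 1239, 773 and 1058 CPM in core members, lowest in the subcritical library (-0.68, -1.15 to -0.25). Actg2, the enteric-type smooth muscle actin, was the gene that was higher: it stood at 83.7, 209 and 405 CPM over all members. It was not higher in core members (69.5, 17.2 and 41.2 CPM), where its 48, 1 and 3 UMIs came from 6, 1 and 1 cells. It was highest in pericyte-marker members, at 174, 572 and 605 CPM, with 469 CPM in the critical collagen-rich members. Cnn2, the calponin that is not confined to smooth muscle, was higher in critical core members, at 462, 378 and 811 CPM (log2 fold 0.81, 0.39 to 1.22).

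**Figure D3:**
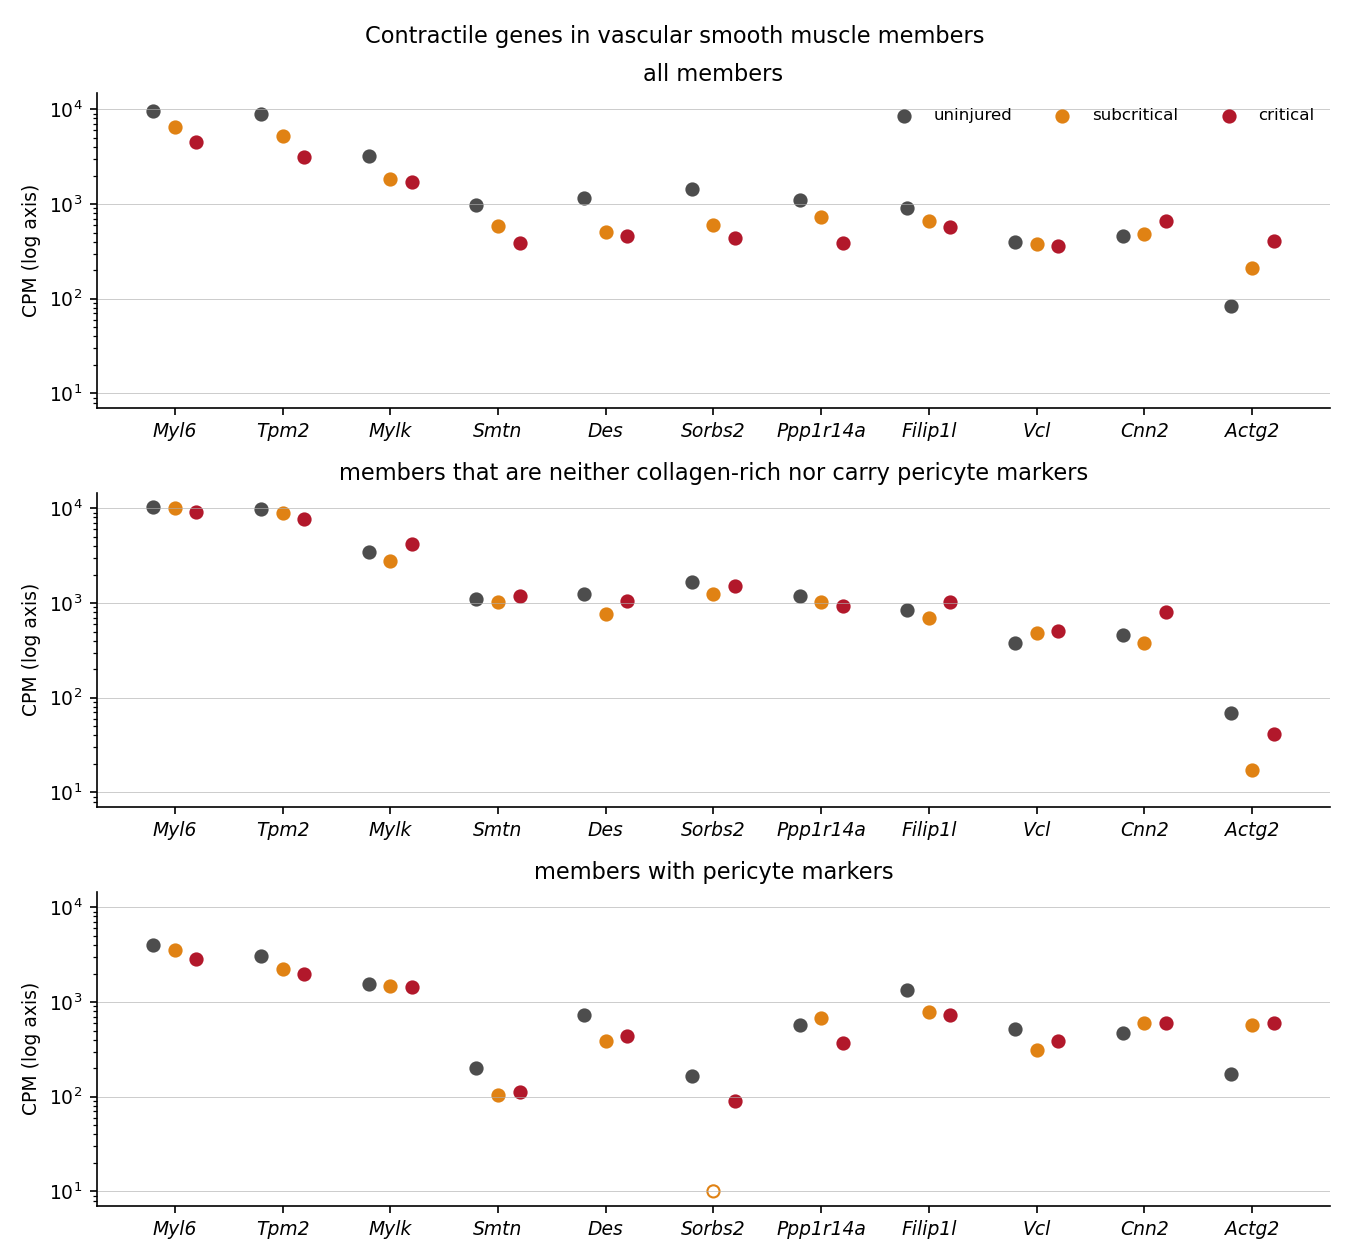
Level (CPM, log axis) of 11 contractile genes outside the rule in the uninjured (grey), subcritical (orange) and critical (red) library. The panels show all members, core members and pericyte-marker members; the open circle at the axis stands for a gene at 0. In all members the grey point lies highest for each gene but Cnn2 and Actg2 (Smtn 982, 593 and 387 CPM), while in core members Smtn stands at 1106, 1031 and 1182 CPM.

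The promoters of these genes were read for the CArG box, the motif that serum response factor binds, because that factor drives the contractile programme. The 250 bases before the start site were taken from RefSeq (GRCm38.p6), where 24 of the 26 listed genes and 5 of the 7 smooth muscle genes of the rule had an entry. The box reads the same on both strands. It was present in 4 of 24 (16.7%), namely Cnn2, Filip1l, Myl6 and Vcl, and in Myl9 among the 5, against 1.47% of 32851 such windows and 1.62% of 27025 genes. Shown are Myl9 and Myl6, light chains of the smooth muscle myosin, and Cnn2, with the box in capitals. They lie at chr2:156775214-156775463 (plus strand), chr10:128493010-128493259 (minus strand) and chr10:79988350-79988599 (plus strand), and the box starts 161, 50 and 56 bases before the start site.
Myl9: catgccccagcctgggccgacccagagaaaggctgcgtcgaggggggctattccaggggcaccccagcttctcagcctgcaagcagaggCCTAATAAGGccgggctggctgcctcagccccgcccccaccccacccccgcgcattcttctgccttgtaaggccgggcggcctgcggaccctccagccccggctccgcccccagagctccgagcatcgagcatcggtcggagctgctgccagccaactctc
Myl6: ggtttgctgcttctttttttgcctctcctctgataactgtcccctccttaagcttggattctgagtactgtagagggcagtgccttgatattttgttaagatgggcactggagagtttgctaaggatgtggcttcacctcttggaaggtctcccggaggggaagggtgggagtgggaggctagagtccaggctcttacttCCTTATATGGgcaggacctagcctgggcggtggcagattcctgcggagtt
Cnn2: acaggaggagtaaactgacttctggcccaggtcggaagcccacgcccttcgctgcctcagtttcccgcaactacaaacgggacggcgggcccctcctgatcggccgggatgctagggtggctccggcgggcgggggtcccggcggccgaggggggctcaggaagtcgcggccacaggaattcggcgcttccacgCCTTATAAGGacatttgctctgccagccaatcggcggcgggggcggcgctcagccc
Myl6 stood at 10380, 10000 and 9126 CPM in core members, slightly lower after injury, whereas Cnn2 was higher in the critical library as given above. Myl9, a gene of the rule, stood at 11180, 10280 and 9800 CPM.

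Calcium and ion channel genes, which set the membrane potential and calcium entry that contraction needs, followed the contractile genes. Of 23 measured, 11 were 2-fold lower and 2 higher in critical members, against 10.9% and 13.3% of all genes. In subcritical members 7 were lower and 2 higher, against 7.65% and 11.5%. Their median log2 fold was -0.90 and -0.65, and in core members 0.13 and -0.12. Kcnmb1, the smooth muscle subunit of the large calcium-activated potassium channel, was 129, 58.5 and 32.6 CPM over all members and 145, 120 and 96.2 CPM in core members. Kcna5, a voltage-gated potassium channel, was 211, 41.8 and 61.5 CPM over all members and 226, 85.9 and 179 CPM in core members. Its subcritical core level rested on 5 UMIs. The 2 genes that were higher, Kcnj8 and Abcc9, form the pericyte potassium channel that defined the pericyte-marker members.

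Genes of vasoactive signalling had a median below 0 over all members and nearer 0 in core members. Of 16 measured, 2 were 2-fold lower and 1 higher in critical members and 1 lower and 2 higher in subcritical members, shares near those of all genes. Their median log2 fold was -0.58 (critical) and -0.48 (subcritical) over all members, and 0.16 and -0.12 in core members. Gucy1a1, a subunit of the nitric oxide receptor, was 996, 660 and 662 CPM over all members and 1035, 911 and 1278 CPM in core members. Ednra, the receptor for the constrictor endothelin, was 141, 91.9 and 123 CPM over all members and 139, 103 and 82.5 CPM in core members. Its core levels rested on 96, 6 and 6 UMIs. Rgs5 was 880, 3424 and 3350 CPM over all members but 17.4, 17.2 and 137 CPM in core members, which the split by Rgs5 itself sets. Aoc3, a surface amine oxidase of smooth muscle, was higher in critical core members, at 447, 361 and 893 CPM.

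The Notch pathway keeps arterial smooth muscle mature through the receptor Notch3. Notch3 itself was level, at 765, 710 and 669 CPM over all members and 730, 859 and 825 CPM in core members. Its ligand Jag1 was 190, 66.8 and 97.7 CPM over all members and 200, 103 and 206 CPM in core members. Hes1, a target gene of Notch, was 349, 117 and 116 CPM over all members. It was below the uninjured level in core members as well, at 369, 155 and 234 CPM, with log2 folds of -1.25 (subcritical, -2.40 to -0.31) and -0.66 (critical, -1.46 to 0.05). The critical interval included 0. Of the 6 Notch genes measured, 2 were 2-fold lower and 0 higher in each injured library, against 10.9% (critical) and 7.65% (subcritical) of all genes 2-fold lower. The list had a median log2 fold of -0.95 (critical) and -0.63 (subcritical) in members. In all other droplets together it was -0.92 and -0.57, but single kinds of cell differed. In endothelial-like cells the median was -0.57 and 0.51, and in macrophage-like cells 0.12 and 0.65. In fibroblast-like cells (at least 3 UMIs of Pdgfra and Lum) it was 0.365 and -0.21. The pericyte-like median (3.12 and 3.43) rests on 6 uninjured cells. The part of cell make-up in the pooled median was not tested. In core members the median was 0.03 and -0.42.

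Among transcription factors, Myocd was 109, 85.9 and 151 CPM in core members, on 75, 5 and 11 UMIs, too few to separate the groups (critical log2 fold 0.47, -0.59 to 1.40). Klf2, a flow-responsive factor, was 184, 125 and 39.8 CPM over all members and 204, 155 and 96.2 CPM in core members, on 141, 9 and 7 UMIs. Over other droplets it was 1135, 236 and 187 CPM, with the same order. Runx1 was 12.5, 58.5 and 130 CPM over all members and 258 CPM in the critical collagen-rich ones, but 11.6, 34.4 and 13.7 CPM in core members. Of the 14 factors measured, 2 were 2-fold lower and 1 higher in critical members, near the 10.9% and 13.3% of all genes.

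Matrix genes were far higher in the members of both injured libraries, and the collagen-rich members held most of that RNA. Of 26 elastic fibre and fibrillar matrix genes, 23 were 2-fold higher in critical and 22 in subcritical members, and 0 were 2-fold lower. The median log2 fold was 3.41 and 3.03. Without collagen-rich members it was 2.42 and 1.70, in core members 2.06 and 0.74, and in other droplets 1.90 and 1.68. It was 1.79 and 0.66 in endothelial-like cells and 2.77 and 2.53 in macrophage-like cells. Col1a1, a chain of fibrillar type I collagen, stood at 186, 6555 and 12130 CPM over all members. In core members it was 110, 309 and 1017 CPM. The same gene stood at 67.6, 238 and 1254 CPM in endothelial-like cells and at 187, 1029 and 1474 CPM in macrophage-like cells, neither of which is known as a source of that collagen. The level in core members was below that of macrophage-like cells in each library, and above that of endothelial-like cells in the uninjured and subcritical ones. The part of RNA from outside the cell in it was not tested. The fibroblast markers summed to 929, 1530 and 2914 CPM in core members and 1275, 2110 and 3176 CPM in macrophage-like cells. Among critical core members, 1 cell of 3348 UMIs had 2.84% of them from Col1a1, Col1a2, Col3a1 and Postn, just under the 3% cut. All other critical core members were at 0.489% or lower. The critical core levels of matrix, fibroblast and tenocyte genes include this 1 cell, and its part in them was not tested.

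The wound-matrix genes behaved in the same way. Postn, periostin of scar tissue, was 62.5, 1929 and 3495 CPM over all members and 11.6, 51.6 and 467 CPM in core members, where the 34 critical UMIs came from 5 cells. Cthrc1, a marker of activated wound fibroblasts, was 0, 476 and 915 CPM over all members. In core members it had 0, 0 and 7 UMIs. Tnc, Timp1 and Col12a1 were 10.0, 234 and 832 CPM, 1.25, 200 and 557 CPM, and 11.3, 309 and 872 CPM over all members. Each had fewer than 10 UMIs in every core pool. In collagen-rich members Tnc was 1168 and 2125 CPM, Timp1 952 and 1196 CPM and Cthrc1 2466 and 2316 CPM, so most of this RNA sat there. Postn was also above the core level in pericyte-marker members (384, 572 and 484 CPM).

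Matrix that smooth muscle itself lays down varied less. Eln, the elastin of the arterial wall, was 326, 459 and 362 CPM over all members and 324, 258 and 440 CPM in core members. Its counting intervals in core members included 0 in both comparisons. Col18a1, a basement membrane collagen, was higher after injury in core members, at 363, 653 and 674 CPM, with log2 folds of 0.84 (subcritical, 0.31 to 1.34) and 0.89 (critical, 0.42 to 1.34). In endothelial-like cells it was 33.6, 299 and 329 CPM, so it was higher after injury there too. Col4a1 was 818, 1169 and 1141 CPM in core members and 494, 2678 and 1805 CPM in pericyte-marker members. Of 14 basement membrane genes, 4 and 3 were 2-fold higher in subcritical and critical members and 0 were lower. Sparcl1, an antiadhesive matrix protein, was 4572, 2630 and 2681 CPM over all members, but 4943, 4503 and 7284 CPM in core members.

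Genes tied to the synthetic, less contractile state were higher as well. Of 26 measured, 19 and 18 were 2-fold higher and 3 and 3 lower in critical and subcritical members. The median log2 fold was 2.05 and 1.54, and 1.21 and 0.44 in core members. It was 1.26 and 0.93 in macrophage-like cells, 1.01 and 0.375 in endothelial-like cells and 0.70 and 0.575 in other droplets. The core medians were thus not above those of both other kinds. S100a6, a calcium-binding protein of motile cells, was 1350, 3407 and 3961 CPM over all members and 847, 1856 and 1677 CPM in core members (log2 fold 1.13 and 0.98). It was 3005, 3387 and 3545 CPM in other droplets and 1373, 2605 and 2344 CPM in endothelial-like cells, lowest in the uninjured library there too. Tmsb4x, thymosin beta 4, which holds actin monomers, was 859, 2589 and 3983 CPM over all members and 498, 1083 and 1649 CPM in core members (1.12 and 1.73). Other droplets held 9418, 7700 and 6806 CPM of Tmsb4x and did not have that order. Core members were shallower after injury, with medians of 3943.5, 1080 and 1492.5 UMIs. Macrophage markers summed to 72.4, 550 and 976 CPM in them, also lowest in the uninjured library. The part of RNA from outside the cell in S100a6 and Tmsb4x was not tested. Timp3, a protease inhibitor of the vessel wall, went the other way over all members, at 970, 451 and 373 CPM, and was 858, 653 and 715 CPM in core members.

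Interferon response genes, which cells switch on when interferon or foreign nucleic acid is sensed, were higher in the injured members, as they were in macrophage-like and pericyte-like cells, while their median in all other droplets together lay below 0. Of 12 measured, 8 were 2-fold higher in each injured library and 0 lower, and all 12 lay above 0 in both comparisons, against 49.9% (critical) and 53.4% (subcritical) of all genes. The median log2 fold was 1.64 (critical) and 1.80 (subcritical), against -0.54 and -0.29 in other droplets and -0.08 and -0.04 in endothelial-like cells. It was 1.42 and 1.41 in macrophage-like cells and 1.75 and 1.93 in pericyte-like cells, of which the uninjured ones are 6 cells of mixed markers. In core members it was 0.81 and 1.29. The summed level of the 26 listed genes was 1330, 2905 and 2048 CPM in core members, 4877, 8997 and 7572 CPM in pericyte-marker members and 16160, 14940 and 14390 CPM in endothelial-like cells. It was 5513, 11590 and 10800 CPM in macrophage-like and 5368, 11350 and 8524 CPM in pericyte-like cells. Both kinds of member, macrophage-like cells and pericyte-like cells were lowest in the uninjured library and highest in the subcritical one, and endothelial-like cells had no such order.

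Ifitm3, which blocks virus entry at membranes, was 515, 1737 and 1718 CPM over all members and 308, 894 and 646 CPM in core members, with log2 folds of 1.53 (subcritical, 1.07 to 1.98) and 1.06 (critical, 0.58 to 1.53). B2m, the shared light chain of MHC class I, was 149, 534 and 438 CPM over all members and 97, 258 and 179 CPM in core members. Its critical interval in core members included 0 (0.87, -0.10 to 1.75). Isg15, a ubiquitin-like protein, was 31.3, 334 and 242 CPM over all members and 30.4, 275 and 27.5 CPM in core members, where 16 subcritical UMIs came from 5 cells. Its critical level sat in pericyte-marker members (383 CPM) and collagen-rich members (258 CPM). Bst2, the tetherin that holds virus particles at the cell surface, was 33.8, 167 and 195 CPM over all members, on 11, 4 and 2 UMIs in core members. Ifitm3 and B2m in the core members lay below their level in macrophage-like cells, with subcritical Ifitm3 the same to the whole CPM (1030, 894 and 1067 CPM for Ifitm3, and 877, 2569 and 2136 CPM for B2m). The part of background RNA in them was not tested.

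The promoters of the interferon list were read for the core of the interferon-stimulated response element, GAAANNGAAA, on either strand and with overlapping matches allowed, since several of these genes differed in the same direction. Of the 26 listed genes, 22 had a RefSeq entry (GRCm38.p6) and 9 of these (40.9%) held the motif in the 250 bases before the start site, against 2.98% of all windows, 1 of 24 contractile genes (Mylk) and 0 of 5 smooth muscle genes of the rule. The windows shown lie at chr4:156200819-156201068 (minus strand, Isg15), chr8:71537473-71537722 (minus strand, Bst2) and chr2:122147437-122147686 (plus strand, B2m). Capitals mark the motif, which starts 78, 72 and 66 bases before the start site in Isg15, 130 and 124 in Bst2 and 139 in B2m.
Isg15: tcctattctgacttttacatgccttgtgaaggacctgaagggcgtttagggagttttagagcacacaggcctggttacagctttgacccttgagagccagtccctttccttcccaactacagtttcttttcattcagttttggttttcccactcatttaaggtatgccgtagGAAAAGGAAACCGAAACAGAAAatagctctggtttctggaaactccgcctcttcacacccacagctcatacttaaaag
Bst2: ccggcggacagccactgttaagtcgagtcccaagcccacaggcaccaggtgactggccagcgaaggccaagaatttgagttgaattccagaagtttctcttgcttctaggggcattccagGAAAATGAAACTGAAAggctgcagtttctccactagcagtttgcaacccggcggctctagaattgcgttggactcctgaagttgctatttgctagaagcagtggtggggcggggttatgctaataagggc
B2m: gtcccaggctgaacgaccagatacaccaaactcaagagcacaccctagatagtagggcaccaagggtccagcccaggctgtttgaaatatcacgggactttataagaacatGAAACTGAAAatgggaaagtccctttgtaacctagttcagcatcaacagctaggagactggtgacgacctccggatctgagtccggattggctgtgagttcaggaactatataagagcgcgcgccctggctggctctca
A match is a description of these letters and not of a bound site.

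Immediate early and stress genes, which cells switch on quickly after many stimuli, tissue dissociation included, were lower in the injured members. Of 27 measured, 11 and 10 were 2-fold lower and 0 higher in critical and subcritical members. The median log2 fold was -0.75 and -0.64, in core members -0.53 and -0.38, and in other droplets -0.43 and -0.44. Fos, a subunit of the AP-1 factor, was 2280, 593 and 554 CPM over all members and 2520, 997 and 1498 CPM in core members, but 256, 251 and 270 CPM in other droplets. Atf3, a stress-induced factor, was 891, 142 and 166 CPM over all members and 1016, 206 and 495 CPM in core members, and 112, 212 and 187 CPM in other droplets. Both were highest in uninjured members, with the subcritical core members lowest, and all other droplets together did not have that order. Fos did have it in macrophage-like cells (540, 426 and 449 CPM) and fibroblast-like cells (258, 180 and 184.5 CPM). In endothelial-like cells Fos did not (127, 140 and 128 CPM). Atf3 had it neither in macrophage-like cells (300, 527 and 523 CPM) nor in endothelial-like (51.7, 68.2 and 42.2 CPM) or fibroblast-like ones (84.0, 66.2 and 46.4 CPM). Dusp1, a phosphatase that shuts off MAP kinases, was 1016, 430 and 536 CPM in core members, 363, 177 and 204 CPM in other droplets and 482, 239.5 and 233 CPM in endothelial-like cells, highest in the uninjured library in each. Ccn1, a secreted target of mechanical signalling, was 1562, 327 and 825 CPM in core members. In all other droplets together it was 239, 250 and 289 CPM, where the uninjured level was not the highest. In endothelial-like cells it was 284, 231 and 275 CPM, the same order as in core members. In fibroblast-like cells it was lowest in the uninjured library (225, 373 and 382 CPM).

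Hspb1, a small heat-shock protein that smooth muscle holds at a high level, was 3586, 1344 and 839 CPM over all members and 4044, 2062 and 1732 CPM in core members (log2 fold -0.97, -1.25 to -0.71, and -1.22, -1.49 to -0.97). It was 3117, 1341 and 1103 CPM in endothelial-like cells, so it was lower after injury in vessel-lining cells of the same libraries too. Uqcrh, a subunit of respiratory complex III, was 989, 258 and 261 CPM in core members and 403, 127 and 153 CPM in other droplets, the same order as in members. Mitochondrially encoded genes summed to 5456, 4537 and 10160 CPM in core members and 2172, 2175 and 4256 CPM in other droplets. They were highest in the critical library in both.

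Cycling members were counted mainly in the injured libraries and mainly outside the core. Cells with at least 2 UMIs of 8 cell-cycle genes numbered 2 of 203, 6 of 79 and 10 of 111 members (0.985%, 7.59% and 9.01%). Thinned to 1000 UMIs a cell, with 27, 27 and 21 shallower members left out, they were 0 of 176, 5 of 52 and 8 of 90. In other droplets the unthinned shares were 3.77, 8.82 and 8.79%. In the critical library 4 of 16 collagen-rich, 6 of 47 pericyte-marker and 0 of 48 core members were cycling, and the count of 0 allows up to 6.25% (3 counts of the total), with an exact 95% upper bound of 7.40%. In the subcritical library these were 1 of 6, 4 of 25 and 1 of 48. Of 12 proliferation genes, 10 and 9 were 2-fold higher in critical and subcritical members and 0 lower. Top2a, which untangles DNA before division, was 0, 100 and 145 CPM over all members and had 0, 1 and 0 UMIs in core members.

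Other pathways of the vessel wall had members in both directions. The reference is 13.3% of all genes 2-fold higher and 10.9% lower in critical members, and 11.5% and 7.65% in subcritical ones. Of 17 genes of the TGF-beta and BMP pathway, which controls matrix and mural maturation, 3 were higher and 3 lower in critical members and 3 higher and 2 lower in subcritical ones. Of 17 growth factors and receptors, 5 were higher in each injured library, with 3 lower in the critical and 1 in the subcritical. Of 11 chemokine, cytokine and adhesion genes, 4 and 2 were higher and 1 and 1 lower in critical and subcritical members. Of 15 hypoxia and glycolysis genes, 0 and 1 were higher and 2 and 2 lower. Tenocyte markers summed to 324, 1370 and 2844 CPM over all members and 172, 258 and 742 CPM in core members, with 5798 and 6661 CPM in the subcritical and critical collagen-rich ones. Glial markers summed to 23.8, 8.35 and 86.8 CPM. Of 9 myogenic markers, 7, 7 and 8 were at 0.

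Across all 3176 genes with a mean of at least 50 CPM, 768 (24.2%) differed at least 2-fold between critical and uninjured members, 421 higher and 347 lower. Between subcritical and uninjured members 608 (19.1%) did, 365 higher and 243 lower, and between critical and subcritical members 286 (9.01%) did, 154 higher (4.85%) and 132 lower (4.16%). The first and second of these share the uninjured library. Without collagen-rich members, 349 (11%) were higher and 181 (5.7%) lower for critical against uninjured, and 285 (8.97%) and 229 (7.21%) for subcritical against uninjured. Of the higher genes, 179 (critical) and 181 (subcritical) stood below their level in other droplets of the same library. The genes with the firmest counting intervals among those at least as high in members as in other droplets were, for critical over uninjured, Cthrc1, Timp1, C1qtnf3, Postn, Tnc, Fkbp11, Col12a1, Ddah1, Cks2 and Top2a. These are mostly matrix and secretory genes with 2 of cell division. Lower were Chchd10, Atf3, Hspb1, Fos, Gm13861, Uqcrh, Cap2, Gm11627, Inpp5a and Jph2, by log2 folds of -2.04 to -2.85. For subcritical over uninjured, the higher genes were Mest, Cks2, Postn, Ube2c, Top2a, Prc1, Cdk1, Hist1h2ae, Cenpf and Birc5, of which most act in mitosis. Few cells carried these. Of the 10, the subcritical UMIs of Ube2c, Cdk1, Hist1h2ae, Cenpf and Birc5 came from 5, 4, 3, 5 and 3 cells, and without the 5 highest members of each library the fold of each of them was 0. The lower ones were Atf3, Uqcrh, St5, Fos, Ccn1, Otud1, Dusp1, Slc38a11, Wfdc1 and Ppp1r15a, by -1.73 to -3.82.

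Over all members, critical against subcritical had the smallest count of 2-fold differences of the 3 comparisons. In core members it had the largest, at 668 genes (22.1%). There critical against uninjured had 390 (12.9%) and subcritical against uninjured 446 (14.8%). The core pools held 690822, 58182 and 72758 UMIs in the uninjured, subcritical and critical library. Critical against subcritical thus lacked the large uninjured pool, and few UMIs widen the counting error of each fold. The order of these counts in core members is not read as a difference between the injuries. Tnc, Col12a1, Angptl2, Timp1, Tnn, Nt5dc2, Fkbp11, Serpinh1, Postn and Sparc were higher in critical members, by log2 folds of 0.76 to 2.45, and these again include the genes of the collagen-rich members, which held 37.8% of member UMIs against 19.3%. Dbp, Tcf15, Nr4a2, Atp5k, Plxnb1, Ttll7, Usp2, Crip1, Dstn and Pnpla2 were lower, by -0.88 to -3.50. Dbp, an output gene of the circadian clock, was 57.9, 223 and 13.7 CPM in core members, and 59.0, 46.9 and 29.9 CPM in other droplets. None of the 26 contractile genes differed 2-fold between critical and subcritical members. The median of that list was -0.34, and 0.22 in core members.

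**Figure D4:**
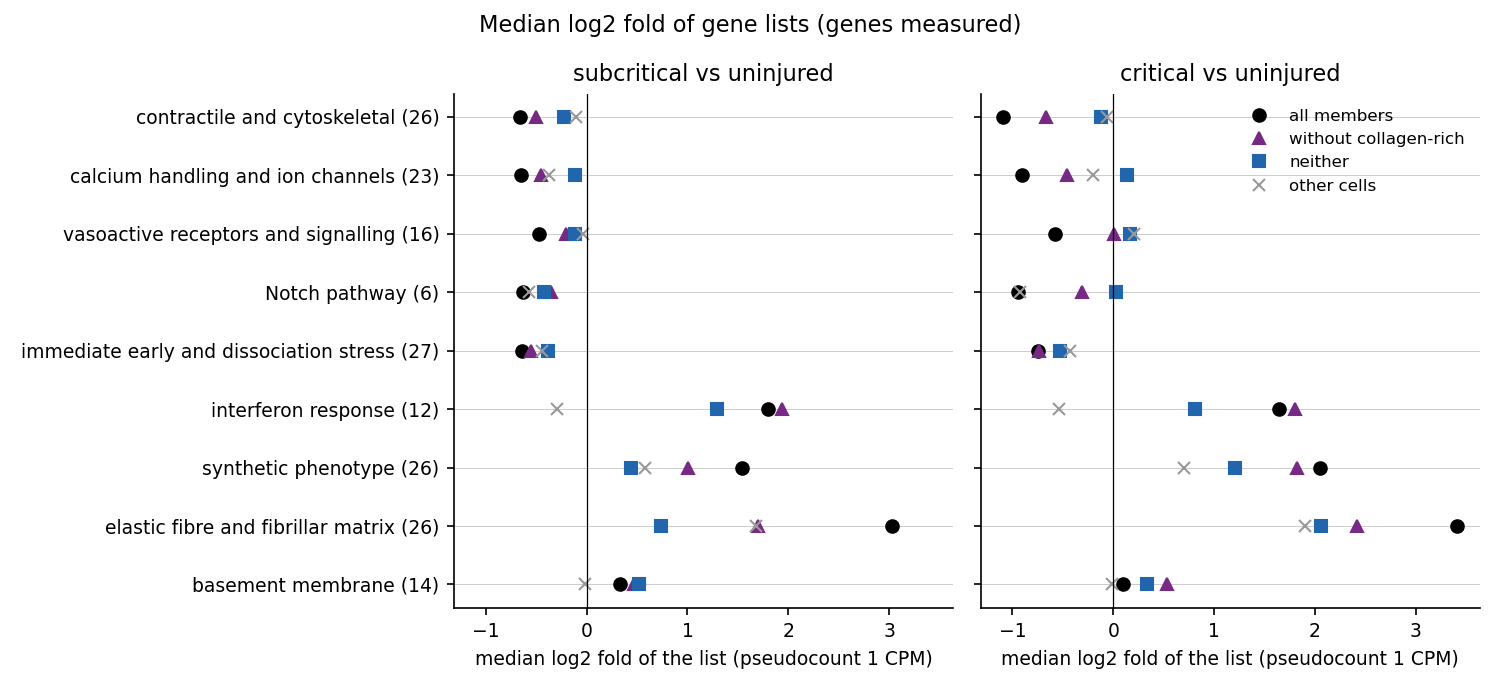
Median log2 fold (pseudocount 1 CPM) of 9 gene lists, with the number of genes measured in brackets, for subcritical and critical against uninjured. Circles show all members, triangles members without the collagen-rich ones, squares core members and crosses other droplets. The contractile list moves from -1.09 (all members) to -0.12 (core) in the critical panel, while the interferon list stays above 0 in each member set and below 0 in all other droplets (macrophage-like and pericyte-like cells, which are not drawn, lie above 0).

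In the core members alone, 203 (6.73%) and 187 (6.2%) of 3017 genes were 2-fold higher and lower for critical over uninjured, and 195 (6.46%) and 251 (8.32%) for subcritical over uninjured. The following genes were singled out after their values had been seen. Crispld2, a secreted protein of mesenchymal cells, was 187, 567 and 591 CPM in core members (log2 fold 1.60, 1.01 to 2.16, and 1.66, 1.13 to 2.17), and 51.4, 51.8 and 48.5 CPM in other droplets. Pdgfrb, the receptor that recruits mural cells to vessels, was 204, 378 and 412 CPM (0.89 and 1.01) on 141, 22 and 30 UMIs. Igfbp5, which binds insulin-like growth factors, was 2829, 4228 and 4810 CPM (0.58 and 0.77), and 430, 443 and 358 CPM in other droplets. All 3 were lowest in the uninjured library. Pdgfrb was also higher after injury in other droplets (26.8, 72.8 and 108 CPM), whereas Crispld2 and Igfbp5 were near level or lower there. Single kinds of cell differed. In endothelial-like cells Crispld2 was 0.442, 3.50 and 9.99 CPM, on 1, 2 and 9 UMIs, and Igfbp5 29.1, 26.2 and 93.2 CPM. In fibroblast-like cells neither was higher after injury (199, 189 and 94.7 CPM, and 1936, 860 and 661 CPM). In pericyte-marker members Igfbp5 was 3660, 2548 and 3247 CPM, highest in the uninjured library.

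**Figure D5:**
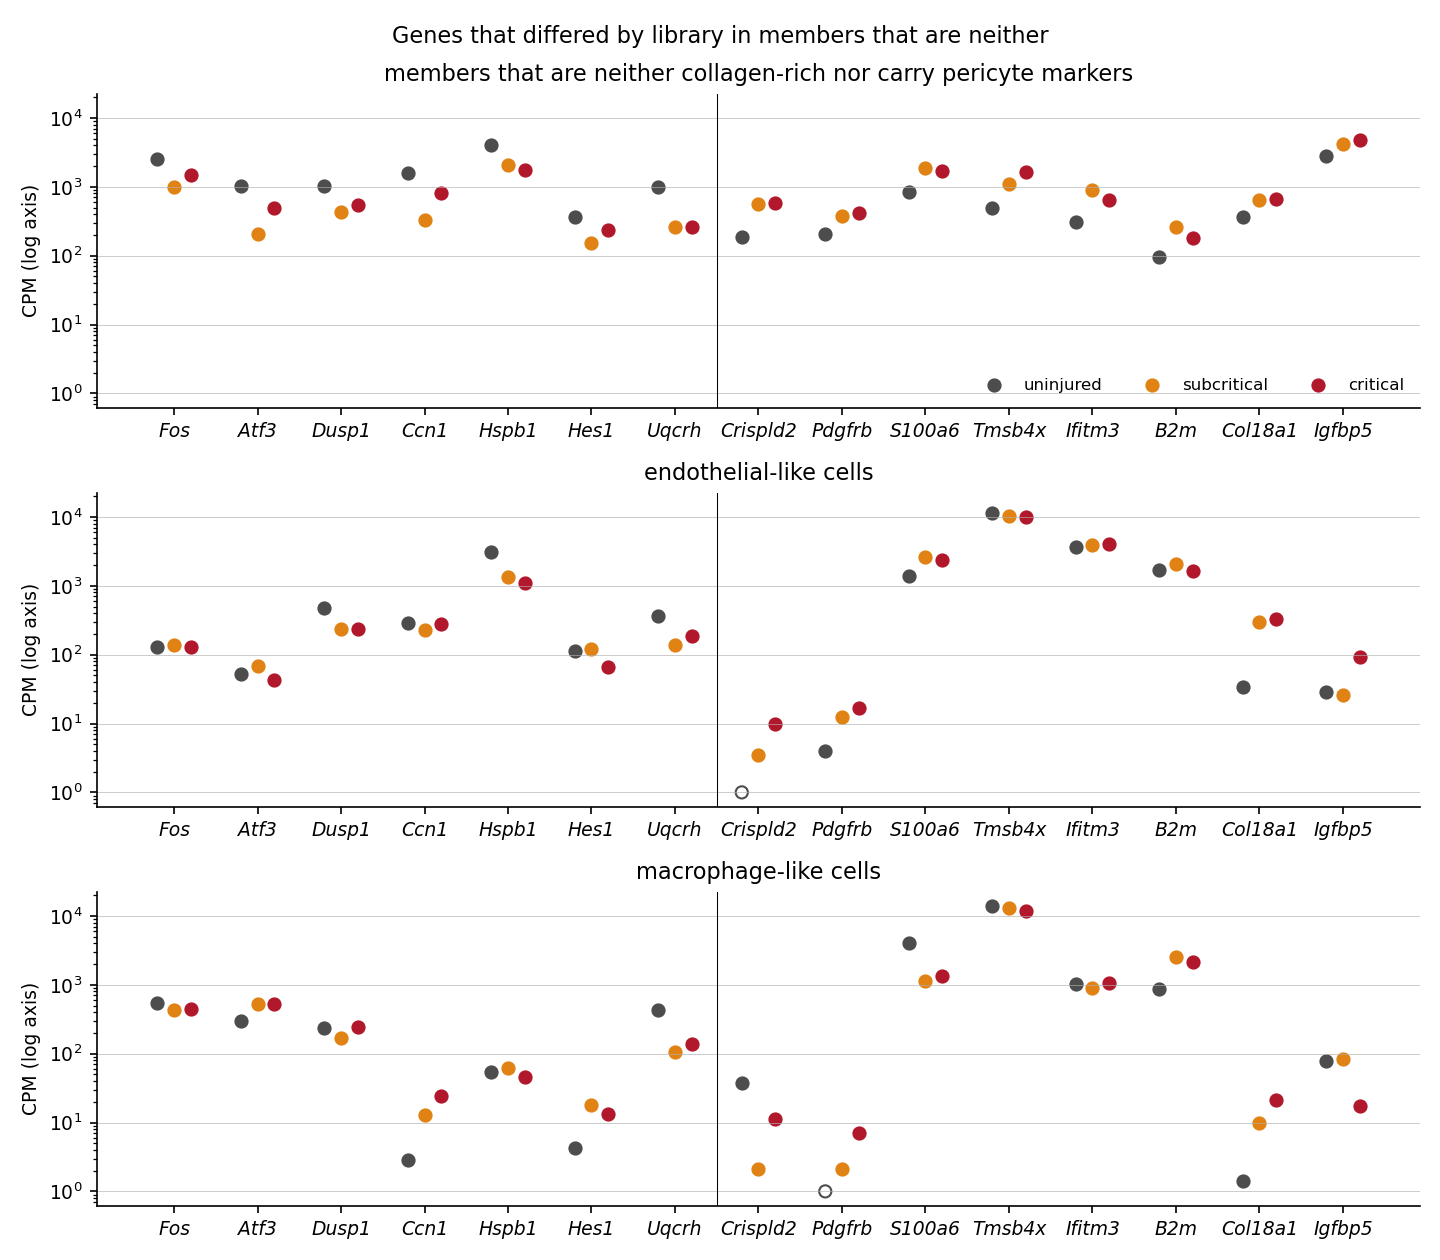
Level (CPM, log axis) of 15 genes in core members (top), endothelial-like cells (middle) and macrophage-like cells (bottom) of the uninjured (grey), subcritical (orange) and critical (red) library; open circles stand for values under 1 CPM. Left of the line are genes with the grey point highest in core members (Fos 2520, 997 and 1498 CPM), right of it genes with the grey point lowest (Crispld2 187, 567 and 591 CPM).

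Pericyte-marker members lay between core members and pericyte-like cells in some genes that neither the rule nor the split used. Mustn1 was 5745 CPM in core members, 1563 in pericyte-marker members and 202 in pericyte-like cells of the critical library, and 6187, 1742 and 418.5 CPM in the subcritical library. Sorbs2, an adaptor of the contractile cytoskeleton, was 1498, 90.8 and 6.50 CPM in the critical library. In the subcritical library it was 1237, 0 and 0 CPM, so there the pericyte-marker members did not lie between the other kinds. Notch3 was 825, 1190 and 774 CPM in the critical library and did not follow that order. Pericyte-like cells had failed the smooth muscle rule, and the 3 kinds share 1 library each time. Myh11, a gene of the rule, is given as a description: 10130, 2259 and 169 CPM in the critical and 7150, 1534 and 203 CPM in the subcritical library.

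Surface antibodies gave a readout that the rule did not use. Members carried few antibody counts, with a mean of 77.7, 87.2 and 69.7 a cell against 255, 164 and 149 on other droplets. Of 135 panel antibodies, 65, 67 and 68 reached at least 2 times the highest of 3 isotype controls, whose mean was 0.168, 0.190 and 0.144. CD49a, the integrin alpha 1 chain that binds collagen and laminin, was the highest, with 7.38, 8.58 and 6.39 counts a member against 6.32, 2.65 and 2.49 on other droplets. Its RNA, Itga1, was 328, 393 and 300 CPM. Protein and RNA of this chain were both highest in the subcritical library, and neither difference was tested. The RNA rested on 262, 47 and 83 UMIs, and the mean antibody total was highest in that library too. CD39, an enzyme that breaks down extracellular ATP, was 5.56, 4.65 and 2.72 counts, lowest in the critical library, and 7.44, 4.51 and 3.33 on other droplets, where the order was the same. CD90.2 (Thy-1) stood at 1.32, 1.84 and 1.68 counts against 0.578, 0.549 and 0.429. CD49f, the laminin-binding integrin alpha 6 chain, was 1.96, 2.06 and 1.93 counts and far lower than on endothelial-like cells (29.3, 28.4 and 22.0). CD200, CD134, TIGIT, Ly-51, CD11a and Mac-2 made up the other 6 of the 10 highest, at 1.43 to 2.89 counts. No level on other droplets is given for these 6, so they are not read as proteins typical of the members. The part of unspecific binding in these low counts was not tested.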

How the data were processed

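Raw counts of UMIs per gene and of antibody reads per barcode were used as deposited by the authors; they were made with Cell Ranger 6.0.2 per the file headers, and the submitters' processing notes name bcl2fastq and GRCm39 (mm39). The sources used here do not give the filters by which barcodes were kept. The file of the subcritical library held 3071 barcodes, of which 2902 had at least 500 UMIs, and all 2195 and 3161 barcodes of the uninjured and critical files did. No doublet caller was run. The rule left out droplets with more than 1 endothelial or 2 macrophage UMIs, and those with fewer stayed in. With none of these and none of Ptprc and Pdgfra allowed, 187, 66 and 78 members remained in the uninjured, subcritical and critical library.

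UMIs were summed over the members of a library and expressed as CPM. Log2 folds used a pseudocount of 1 CPM over 3176 of 32285 genes with a mean of at least 50 CPM. Exact 95% intervals cover counting error only. PCR copies were collapsed by UMI. Hashtags were called with a mixture model per hashtag at a posterior of 0.9. The calculation of folds was tested on simulated data. Genes named across all genes were the 10 higher and 10 lower with the counting bound farthest from 0, at least as high in members as in other droplets. Names within lists were those with the largest folds and genes that define a cell type. The 26 gene lists and the members were chosen with earlier results of these data known. Alternatives were TMM scaling (edgeR 4.0.16), other count filters and pseudocounts, thinning to 1000 UMIs, stricter rules and each member weighted alike; leaving out collagen-rich and pericyte-marker members was added after seeing the data. Promoters came from RefSeq GRCm38.p6 and are not mixed with coordinates of the counts. Python 3.11.15, numpy 2.4.6, scipy 1.17.1 and pandas 2.3.3 were used.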

Additional observations from a re-analysis of the deposited data

Results flagged for a closer look

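In subcritical mice, 1 animal had a share of tagged cells that were members of 0.326%, while the other 3 were at 0, so this animal lay far from the others. The value rests on 1 member, the only tagged member of that group. With 1 tagged member the other 3 animals had to be at 0. The flag was thus fixed in advance and says nothing about that animal.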

How the results depend on the processing

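The share of droplets that were members moved beyond its counting interval under these settings: without collagen-rich and pericyte-marker members it was 7.47% (uninjured), 1.65% (subcritical) and 1.52% (critical), with at least 4 marker UMIs 2.14% (subcritical) and 2.37% (critical), thinned to 1000 UMIs 2.83% (critical), and with no UMI of endothelial, macrophage, Ptprc and Pdgfra genes 2.47% (critical). The uninjured share was above both injured ones under each of them. Counts of genes past 2-fold followed the filter. For critical against uninjured (768), they were 1660 at a mean of at least 20 CPM, 425 at 100 CPM, 6342 with no filter, 472 with each member weighted alike, 492 with at least 4 marker UMIs, 495 without collagen-rich members and 390 in core members. For subcritical against uninjured (608), they were 1637, 297 and 6667 at 20 CPM, 100 CPM and no filter. For critical against subcritical (286), they were 1190, 78 and 5816, then 708 thinned and 668 in core members. The cause was not tested. Fewer UMIs, as in thinning or in core members, widen the counting error of each fold.

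Of the named genes and lists past 2-fold over all members, in core members these log2 folds for critical against uninjured turned: Actg2 -0.74, Birc5 -1.29, Cdk1 -1.29, Isg15 -0.14, Mustn1 0.35, Myocd 0.47, Pln 0.23 (a gene of the rule), Smtn 0.10 and the median of the proliferation list -0.26. Smaller differences turned too, among them Mylk 0.30, Sparcl1 0.56 and the medians of the calcium (0.13) and vasoactive (0.16) lists. For subcritical against uninjured Actg2 was -1.95, Birc5 -1.29, Cdk1 -1.29, Mest -1.29, Rgs5 -0.0145 and Serpinh1 -0.25, and for critical against subcritical Runx1 was -1.26. Without collagen-rich members Mest was -1.17 and the tenocyte list -0.57 for subcritical against uninjured. Thinned to 1000 UMIs, Myocd was 0.06 (critical) and 0.17 (subcritical) against uninjured. Several of these rest on fewer than 10 UMIs. Over animals, leaving out each animal gave a critical minus uninjured difference of -0.542 to 0.0373 percentage points, a subcritical minus uninjured difference of -0.849 to -0.27 and a critical minus subcritical difference of 0.0963 to 0.436, with no exact permutation p under 0.0571. No paired analysis was possible because each group is 1 pooled library of other animals.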
